A study of Mus musculus with 9 samples.

Results

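Srsf3, Ddx6 and Nup98 are 3 genes of RNA processing and transport whose transcripts were far lower in mouse tumour endothelial cells after dinaciclib. They were picked by name from the deposited dinaciclib table as a splicing factor, a P-body helicase and a nuclear pore gene among its steepest falls, so their change with dinaciclib is described here and not tested. They are 3 of the 251 genes in that table and of 720 genes in the 2 tables of the series. EHE17 is an endothelial tumour line with the genotype TC+/+ Cdkn2a -/-, shared by all libraries. Of the 2 groups used for the 3 genes, the first received dinaciclib at 300 nM for 16 h and the second DMSO vehicle, with 3 biological replicates each. A further group of 3 received MGH-CP1 at 10 µM for 16 h and has its own table. All cells are of 1 line, and the labels do not say whether replicates came from separate cultures, so errors measure the spread between these samples.

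Dinaciclib inhibits cyclin-dependent kinases, among them those that phosphorylate RNA polymerase II during elongation. A nascent transcript is spliced in the nucleus, leaves through nuclear pores, and is translated, stored or degraded in the cytoplasm. Srsf3 encodes a small serine/arginine-rich protein that binds exons, promotes their inclusion and helps to export spliced messages. Ddx6 encodes a DEAD-box RNA helicase of P-bodies, cytoplasmic granules in which messages are repressed or decapped. Nup98 encodes a nucleoporin with phenylalanine-glycine repeats that line the pore channel, made as a precursor from which a second, structural nucleoporin is cut.

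Dinaciclib libraries held 2541162 to 3316779 counts and vehicle libraries 31852117 to 40020833, a mean total 12.2 times as high in vehicle. Levels are given as normalised counts (the read count over the library's size factor, both by the authors) or as FPKM, in which the authors also divide by gene length and by the total count. Both are relative to the rest of the library, and fewer cells and less RNA per cell cannot be told apart. The table holds only genes with a deposited adjusted p below 0.05, a log2 change of at least 1 in size and an entry for a tumour type. Of 16 endothelial markers, 2 were in it (Kdr and Fli1), with a summed level of 1826 to 2086 normalised counts in dinaciclib libraries and 9275 to 9770 in vehicle libraries. No marker of fibroblasts, mural cells, epithelium or leukocytes was in it, and the other markers were not analysed here.

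Srsf3 (ENSMUSG00000071172) lies on the plus strand of chromosome 17 from 29032628 to 29043373. It was covered by 33, 50 and 54 counts in dinaciclib libraries 1 to 3, against 6139, 6835 and 8530 counts in vehicle libraries 1 to 3. After division by size factors these were 122, 143 and 177 normalised counts with dinaciclib and 1994, 2063 and 2198 with vehicle. The highest dinaciclib library was thus far below the lowest vehicle library. The means were 147 ± 27.7 normalised counts with dinaciclib and 2085 ± 104 with vehicle (SD, n = 3 each), so that 7.06% of the vehicle level was left. In the fit over the whole table the log2 change was −3.82 with SE 0.15.

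Ddx6 (ENSMUSG00000032097) lies on the plus strand of chromosome 9 from 44604892 to 44640731. Its counts were 34, 27 and 47 with dinaciclib, against 9206, 9644 and 10628 with vehicle. It had 126, 77.0 and 154 normalised counts in dinaciclib libraries, and 2990, 2912 and 2739 in vehicle libraries. Dinaciclib replicate 2 was the lowest of its group, with a ratio of 2.00 between the highest and lowest library, while the vehicle libraries lay within a ratio of 1.09. The means were 119 ± 38.9 normalised counts with dinaciclib and 2880 ± 129 with vehicle (SD, n = 3 each), or 4.13% of the vehicle level. The fitted log2 change was −4.61 with SE 0.20.

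Nup98 (ENSMUSG00000063550) lies on the minus strand of chromosome 7 from 102119398 to 102210176. It had 14, 10 and 5 counts in the dinaciclib libraries and 2480, 2554 and 2918 counts in the vehicle libraries. As normalised counts these were 51.8, 28.5 and 16.4 with dinaciclib and 806, 771 and 752 with vehicle. The groups did not overlap for any of the 3 genes, which also held for 186 of the 251 listed genes on the lower side, or 74.1%, and for 24.3% on the higher side. For the 3 genes this is set by how they were chosen. The mean of Nup98 was 32.2 ± 17.99 normalised counts with dinaciclib and 776 ± 27.2 with vehicle (SD, n = 3 each), or 4.15% of the vehicle level. Its fitted log2 change was −4.62 with SE 0.31. The authors' deposited table gives log2 changes of −4.63 for Nup98, −4.62 for Ddx6 and −3.82 for Srsf3.

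**Figure D1:**
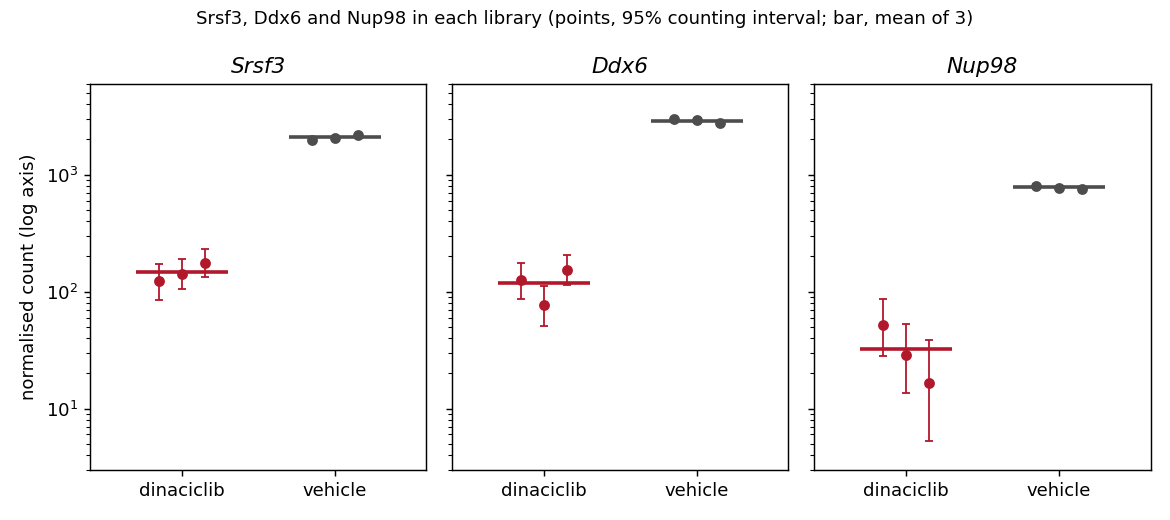
Normalised counts (log axis) of Srsf3, Ddx6 and Nup98 in each of the 3 dinaciclib and 3 vehicle libraries; points are libraries, bars the 95% exact Poisson interval of the count and lines the group means. In each panel the dinaciclib libraries lie below the vehicle libraries, down to 16.4 for Nup98 in replicate 3.

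The precision of the low levels follows the counts behind them. The 29 counts of Nup98 summed over the dinaciclib libraries have a 95% exact Poisson interval of 19.4 to 41.6, the 108 counts of Ddx6 one of 88.6 to 130.4, and the 137 counts of Srsf3 one of 115.02 to 162. These intervals cover counting error only. For Nup98 the interval of the 14 counts in dinaciclib replicate 1 was 7.65 to 23.5 and that of the 5 counts in replicate 3 was 1.62 to 11.7, so that even the outermost libraries overlapped. The coefficient of variation between dinaciclib libraries was 55.8% for Nup98, 32.7% for Ddx6 and 18.8% for Srsf3, where counting alone gives 32.2%, 16.7% and 14.8%. Among vehicle libraries it was 3.50%, 4.47% and 4.98% in the same order.

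Levels per length put Nup98 last with either treatment, while Srsf3 and Ddx6 were close with dinaciclib and Ddx6 was above Srsf3 in vehicle cells. The lengths used are merged exon lengths, 7899 bases for Srsf3 and 8035 for Ddx6. Their longest coding transcripts have 2618 and 6065 bases, so how these 2 genes compare depends on the length used. Srsf3 stood at 1.64, 1.91 and 2.39 FPKM with dinaciclib, against 24.4, 25.3 and 27.0 FPKM with vehicle. Ddx6 stood at 1.67, 1.01 and 2.04 FPKM with dinaciclib, against 36.0, 35.1 and 33.1 FPKM with vehicle. Nup98 stood at 0.437, 0.239 and 0.139 FPKM with dinaciclib, against 6.18, 5.93 and 5.79 FPKM with vehicle. In vehicle the ranges of the 3 genes were separate. With dinaciclib the ranges of Srsf3 and Ddx6 overlapped, and Nup98 stayed below both. By mean FPKM, Srsf3, Ddx6 and Nup98 ranked 137, 155 and 226 of the 251 listed genes in dinaciclib libraries, and 44, 29 and 155 in vehicle libraries. The median listed gene stood at 2.28 FPKM with dinaciclib and 8.58 FPKM with vehicle, so all 3 genes were under the median with dinaciclib, and Nup98 was under it in vehicle too.

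Ratios between the genes within a library do not depend on its size factor. The ratio of Ddx6 to Srsf3 in normalised counts was 1.03, 0.540 and 0.870 in dinaciclib libraries, against 1.5, 1.41 and 1.25 in vehicle libraries. Every dinaciclib library lay below every vehicle library for this ratio, whose mean was 0.814 ± 0.250 with dinaciclib and 1.39 ± 0.129 with vehicle (SD, n = 3 each). The separation rests on few counts, such as 34 of Ddx6 and 33 of Srsf3 in dinaciclib replicate 1, and both genes were chosen for their falls. The ratio of Nup98 to Srsf3 was 0.424, 0.200 and 0.0926 with dinaciclib, against 0.404, 0.374 and 0.342 with vehicle, and the groups overlapped. Its log2 change was −0.64, or −1.35 without dinaciclib replicate 1 and −0.26 without dinaciclib replicate 3. The ratio of Nup98 to Ddx6 was 0.412, 0.370 and 0.106 with dinaciclib, against 0.269, 0.265 and 0.275 with vehicle. Here the dinaciclib libraries lay on both sides of the vehicle libraries, so the data do not order the falls of Nup98 and Ddx6.

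**Figure D2:**
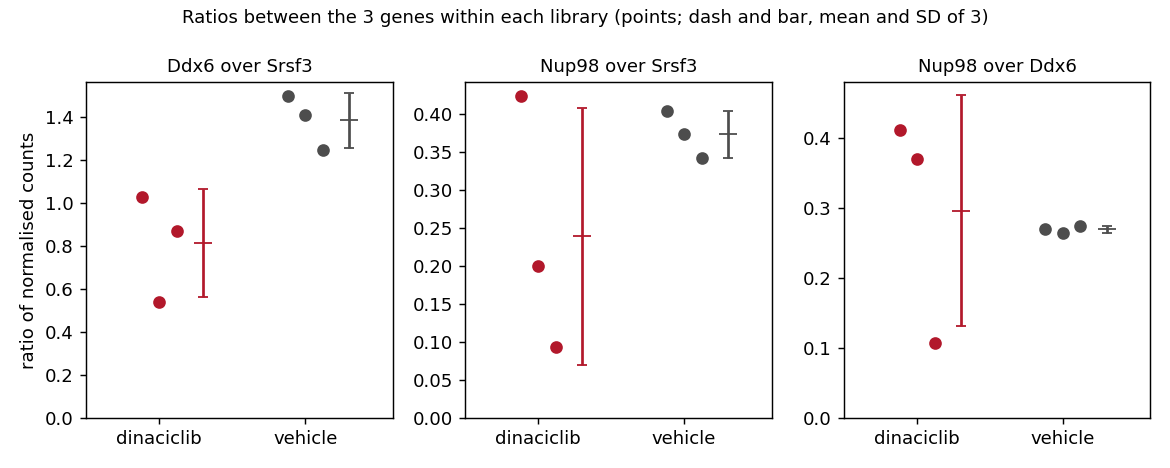
Ratios of normalised counts between Srsf3, Ddx6 and Nup98 within each of the 3 dinaciclib and 3 vehicle libraries; points are libraries, and the dash with its bar is the mean with SD. The groups are separate for Ddx6 over Srsf3 (0.540 to 1.03 with dinaciclib, 1.25 to 1.5 with vehicle) and overlap for the other ratios.

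In the order of fitted changes over the 248 tested genes, from the steepest fall, Nup98 had rank 18, Ddx6 rank 19 and Srsf3 rank 33. Ranks 1 to 7 were taken by genes with 0 counts in all dinaciclib libraries, whose fitted change depends on the prior count of the fit. Among the 126 genes at or above the median mean level, Nup98, Ddx6 and Srsf3 had ranks 2, 3 and 6. That level is over dinaciclib and vehicle libraries together, and for these genes it comes mostly from vehicle (Nup98: 776 against 32.2 normalised counts). The genes were chosen for steep falls, so all these ranks largely follow from that choice. Bcl10, a signalling adaptor gene of lymphocytes, stood just before Nup98 at a log2 change of −4.66, and the homeobox gene Hoxa9 just after Ddx6 at −4.30 on 2 dinaciclib counts. The acetyltransferase gene Kat6a stood just before Srsf3 at −3.83, and the kinase gene Lck just after it at −3.80 on 3 dinaciclib counts. The change of the median tested gene was −1.83, from which Srsf3 differed by −1.99, Ddx6 by −2.78 and Nup98 by −2.79 on the log2 scale. All 186 genes that were lower and all 62 that were higher passed the edgeR test at an adjusted p below 0.05, which is 75.0% and 25.0% of those tested. The authors had picked the listed genes on these same libraries, so this pass rate was largely set by that choice. With TMM factors, another library scale, 106 were called lower and 63 higher, and the median change moved by 1.37. Library sizes set to total counts moved it by 0.13.

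**Figure D3:**
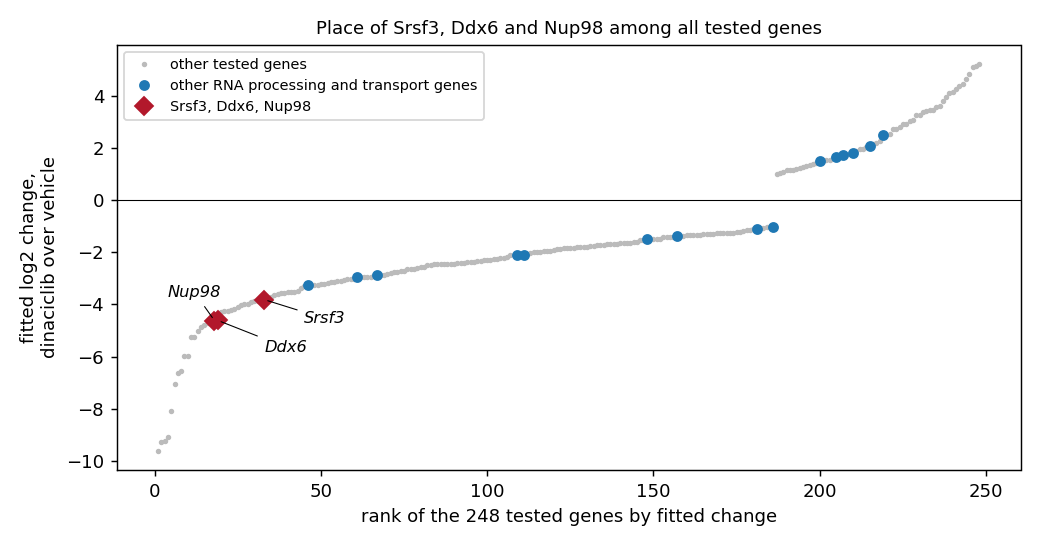
Fitted log2 change with dinaciclib over vehicle (y axis) of the 248 tested genes in rank order (x axis). Red diamonds are Nup98, Ddx6 and Srsf3 at ranks 18, 19 and 33, blue points the other 15 RNA processing and transport genes of the table, and grey points the remaining genes.

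The genes with the most alike profile over the 6 libraries were sought among 125 others whose mean level reached the median of the table. Likeness was the root mean square difference of log2(normalised count + 1), each gene centred on its vehicle mean. For Srsf3 the nearest were Kat6a at 0.17, the nucleotidase gene Cant1 at 0.27 and the tyrosine kinase gene Abl1 at 0.28. For Ddx6 they were Cant1 at 0.42, Kat6a at 0.59 and Nup98 at 0.61. For Nup98 they were Ddx6 at 0.61, Cant1 at 0.61 and Srsf3 at 0.87. Seen from Srsf3, Ddx6 came only at place 9 and Nup98 at place 19 of the 125. With profiles centred on vehicle, the distance largely follows the size of the fall, for which Srsf3, Ddx6 and Nup98 were chosen. That they lie near each other is thus no separate result. Kat6a had 55.5, 51.4 and 91.7 normalised counts with dinaciclib, against 917, 1004 and 896 with vehicle. Cant1 had 44.4, 39.9 and 45.9 with dinaciclib, against 775, 793 and 791 with vehicle. Abl1 had 137, 231 and 174 with dinaciclib, against 2207, 2076 and 2133 with vehicle. The groups were separate for all 3 of these neighbours, as a search for profiles like those of the chosen genes would give, and as in 74.1% of listed genes on the lower side. Of the 3, Cant1 varied least between dinaciclib libraries. The size factors of these libraries were 0.27 to 0.35, so few reads stand behind its values, and a steadier gene is not shown.

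Promoter windows were matched for 2 of the 3 genes in RefSeq sequence of build GRCm38.p6, and Ddx6 had no entry. They are shown because both genes were lower with dinaciclib. Each is 218 bases long and runs from 250 to 33 bases before the RefSeq start, since the deposited table starts Srsf3 32 bases before that start, and Nup98 10 bases before it. For Srsf3 the window is chr17:29032410-29032627 on the plus strand, and for Nup98 it is chr7:102210199-102210416 on the minus strand, from the one of 2 entries nearer to the gene's 5′ end in the deposited table. Capitals mark 5 motifs searched on either strand, with no overlap between their matches here. They are the TATA box as TATAAA, the box spelled CCAAT, the GC box as GGGCGG, the core of the cyclic AMP response element as TGACG and the E-box as CACGTG.
Srsf3: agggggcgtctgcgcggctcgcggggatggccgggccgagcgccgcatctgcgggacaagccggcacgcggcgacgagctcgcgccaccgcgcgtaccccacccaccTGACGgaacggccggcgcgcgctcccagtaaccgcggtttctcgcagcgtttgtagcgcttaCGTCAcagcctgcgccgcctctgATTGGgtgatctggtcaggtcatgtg
Nup98: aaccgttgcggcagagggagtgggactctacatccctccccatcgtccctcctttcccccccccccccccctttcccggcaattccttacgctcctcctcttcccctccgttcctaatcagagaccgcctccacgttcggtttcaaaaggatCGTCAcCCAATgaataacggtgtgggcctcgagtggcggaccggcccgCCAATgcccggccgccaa

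CCAAT was in both windows, once in Srsf3 and in 2 places in Nup98, against 30.8% of the 32851 windows of this length. TGACG was in both windows too, in 2 places in Srsf3 and once in Nup98, against 14.6%. Neither window held TATAAA, which 9.87% of windows hold. The GC box and the E-box were in neither of them, against 28.2% and 4.95% of windows. With all 250 bases before the RefSeq start, a length tried after its matches had been seen, Srsf3 also held TATAAA from 18 to 13 bases before that start, inside the gene as the deposited table has it. Of windows of that length 12.4% hold it. Nup98 then had GGGCGG (32.7% of windows) from 32 to 27 bases before its RefSeq start, which is upstream of its deposited gene start too. It also had a further TGACG (17.8%) from 7 to 3 bases before the RefSeq start, inside the deposited gene. G and C made up 71.1% of the Srsf3 window of 218 bases and 62.8% of the Nup98 window, against a median of 51.8% over all windows. Of the other RNA processing and transport genes in the table, CCAAT was in 7 of 9 that were lower and 4 of 6 that were higher, TGACG in 4 of 9 and 4 of 6, and TATAAA in 0 of either. Where a gene had several windows, any of them counted. A match describes letters and not a bound factor.

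The 3 genes differ in their gene models (GENCODE M21, same build). Srsf3 spans 10.7 kb with 6 exons and a coding length of 492 bases, Ddx6 35.8 kb with 14 exons and 1449 bases, and Nup98 90.8 kb with 33 exons and 5448 bases, each by its longest coding transcript. Genes that were lower had a median span of 47.8 kb, 13 exons and 2178 coding bases, and genes that were higher 20.9 kb, 12 exons and 1443 bases, so Srsf3 was short on each measure and Nup98 long. Of 10 annotated Srsf3 transcripts, 1 is protein-coding, 2 are targets of nonsense-mediated decay, 4 retain an intron and 3 have another processed form. Gene counts do not separate them. FPKM of Srsf3 uses a merged exon length of 7899 bases, where its coding transcript has 2618, so its level is understated relative to a gene of 1 transcript. No other M21 gene overlaps Srsf3 or Nup98. Ddx6 holds 3 (E030022I16Rik and Gm47234 on its own strand and the pseudogene Gm30671 on the other), and reads there can be lost or shared. That the libraries carry no strand mark matters for Gm30671 only.

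Of 49 nuclear pore and transport genes on the list, 3 were in the table. Nup98 was chosen for its fall, and the other 2, Tpr and Nup214, were both called lower, as were 75.0% of all tested genes. Tpr encodes a protein of the nuclear basket, where messages are checked before export, and Nup214 a nucleoporin of the cytoplasmic face. Tpr had 348, 177 and 272 normalised counts in dinaciclib libraries, against 2033, 2058 and 2057 in vehicle libraries. On the log2 scale Tpr changed by −2.96 with SE 0.21, and edgeR's quasi-likelihood test gave it an adjusted p of 1.74e-06. Nup214 had 237, 225 and 265 normalised counts with dinaciclib, against 549, 502 and 521 with vehicle. It changed by −1.11 with SE 0.17 on the log2 scale, at an adjusted p of 0.000223 in that edgeR fit, but by 0.26 with TMM factors, at an adjusted p of 0.187. Within libraries, the ratio of Nup214 to Nup98 in FPKM was 5.96, 10.3 and 21.1 with dinaciclib and 0.890, 0.850 and 0.905 with vehicle. That of Tpr to Nup98 in FPKM was 8.06, 7.44 and 19.9 with dinaciclib and 3.03, 3.21 and 3.28 with vehicle. In every dinaciclib library Nup98 was thus lower against both other pore genes than in any vehicle library, which is a description, since Nup98 was chosen for its fall.

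Of 59 splicing factor genes on the list, 3 were in the table. Beside Srsf3, chosen for its fall, Zrsr2 and U2af1 were both called lower, beside 75.0% of all tested genes. Zrsr2, which recognises the acceptor site of minor introns, averaged 78.2 ± 21.9 normalised counts with dinaciclib and 329.9 ± 20.8 with vehicle (SD, n = 3 each). Its log2 change was −2.09 (adjusted p 3.57e-05, edgeR), or −0.72 with TMM factors at an adjusted p of 0.0261, and reads may be shared with its mouse retrocopy. U2af1, which binds the acceptor site of major introns, had 266, 54.2 and 128 normalised counts with dinaciclib, against 413, 419 and 400.5 with vehicle. The dinaciclib libraries were spread over a ratio of 4.91, below the vehicle libraries in each case. The log2 change of U2af1 was −1.5 with an adjusted p of 0.00811 by edgeR, and −0.14 at an adjusted p of 0.807 with TMM factors. It was −2.21 without dinaciclib replicate 1 and −1.09 without dinaciclib replicate 2.

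In the P-body and decay list, 2 of 48 genes were in the table, Ddx6, whose direction was set by the choice, and Cnot3. Cnot3, a subunit of the CCR4-NOT deadenylase that DDX6 binds, had 144, 77.0 and 118 normalised counts with dinaciclib and 489, 464 and 491 with vehicle. Its log2 change was −2.11 (adjusted p 3.92e-05, edgeR), or −0.74 with TMM factors at an adjusted p of 0.0221. Dicer1, which cuts microRNA precursors, was the 1 gene of 12 on the small RNA list, at 319 ± 118 normalised counts with dinaciclib and 654 ± 13.9 with vehicle (SD, n = 3 each). Its log2 change of −1.02 passed the edgeR test at an adjusted p of 0.00324 but was 0.36 with TMM factors, at an adjusted p of 0.281.

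Of 30 genes of 3′ end processing on the list, 2 were in the table and were called lower, a direction shared by 75.0% of all tested genes. Clp1, an RNA kinase of the cleavage machinery, had 0, 6 and 3 counts in dinaciclib libraries and 283, 303 and 377 in vehicle libraries. Clp1 changed by −3.26 on the log2 scale, or by −4.15 without dinaciclib replicate 2 and −2.77 without dinaciclib replicate 1. Its adjusted p was 9.24e-05 by edgeR. Fip1l1, of the poly(A) signal recognition complex, averaged 194 ± 66.2 normalised counts with dinaciclib and 504 ± 13.4 with vehicle (SD, n = 3 each). It changed by −1.39 on the log2 scale (adjusted p 0.000523, edgeR), but by −0.02 at an adjusted p of 0.947 with TMM factors. Ddx10, a helicase of ribosome assembly and the 1 listed gene of 27 other RNA helicases, had 62.9, 74.2 and 9.83 normalised counts with dinaciclib and 347, 368 and 368 with vehicle. Its log2 change was −2.87 (adjusted p 0.000168, edgeR), with dinaciclib replicate 3 far below the other 2.

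A list of hnRNP, FET and other RNA-binding proteins held genes that were higher with dinaciclib. Of 25 on that list, 5 were in the table, of which 5 rose and 0 fell, where 25.0% of all tested genes were called higher. Their median log2 change was 1.80, against −1.83 over all tested genes. The list was drawn up with results of these data known, and its other genes were not seen, so this does not describe the class as a whole. Hnrnpa2b1, an hnRNP that packages nascent transcripts, had 36444, 31540 and 40216 normalised counts with dinaciclib and 6500, 6505 and 6427 with vehicle. It rose by 2.48 with SE 0.11 on the log2 scale (adjusted p 1.32e-07, edgeR). The FET genes Ewsr1 and Taf15, which encode related RNA-binding proteins, changed by 2.09 (adjusted p 1.46e-07, edgeR) and 1.80 (adjusted p 5.06e-07, edgeR). Nono, of paraspeckles, averaged 10894 ± 1129 normalised counts with dinaciclib and 3295 ± 81.8 with vehicle (SD, n = 3 each). Msi2, a Musashi translation regulator, averaged 1887 ± 163 with dinaciclib and 599 ± 17.02 with vehicle. Their log2 changes were 1.72 and 1.65 (adjusted p 3.33e-07 and 1.12e-06, edgeR). Of 14 translation initiation genes, Eif4a2 was listed and rose by 1.49 (adjusted p 2.11e-06, edgeR). Each of these 6 kept its direction and its call with TMM factors and with total counts. Both scales moved the median change upward, by 1.37 and 0.13, so genes already higher could hardly lose their call there. Within libraries Hnrnpa2b1 stood at 299, 221 and 227 times the normalised count of Srsf3 with dinaciclib, and at 3.26, 3.15 and 2.92 times with vehicle. Srsf3 was chosen for its fall and Hnrnpa2b1 had the largest rise of these 6, so the shift of this ratio was set by that choice.

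Over all 9 lists, 18 of 290 genes were in the dinaciclib table and all were tested, with 12 lower and 6 higher. Without Srsf3, Ddx6 and Nup98, 9 were lower and 6 higher of 15, that is 60.0% lower beside 75.0% lower over all 248 tested genes, and their median log2 change was −1.11. Being in the table already required a change, and the lists were drawn up with results of these data known. With TMM factors the log2 changes of Tpr, Clp1 and Ddx10 were −1.60, −1.89 and −1.48, still called lower at adjusted p of 0.000204, 0.0121 and 0.0221 by edgeR. None of the 26 genes on the mRNA export list was in the table.

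**Figure D4:**
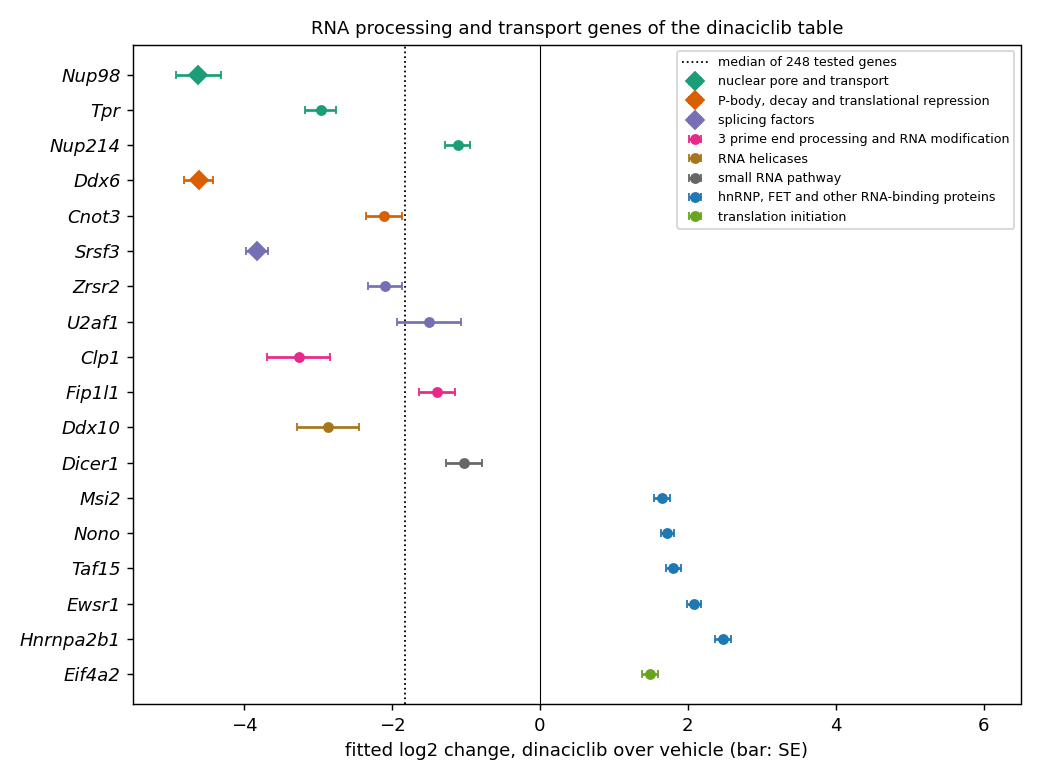
Fitted log2 change with dinaciclib over vehicle (x axis, bars SE) of the 18 genes of the RNA processing and transport lists in the table, coloured by list; diamonds are Nup98, Ddx6 and Srsf3, and the dotted line is the median of the 248 tested genes at −1.83. Hnrnpa2b1, Ewsr1, Taf15, Nono, Msi2 and Eif4a2 lie above 0, between 1.49 and 2.48, and the other 12 lie below 0.

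With MGH-CP1, an inhibitor of TEAD palmitoylation, 0 of the 3 genes were in the deposited table of 471 genes. Their levels in those libraries were not analysed here, and absence from the table does not show that they did not change. Of the 290 list genes 1 was in it: Pabpn1, which encodes the nuclear poly(A)-binding protein. Pabpn1 had 246, 216 and 210.4 normalised counts with MGH-CP1, against 580, 642 and 611 with vehicle. It changed by −1.45 with SE 0.14 on the log2 scale (adjusted p 1.17e-05, edgeR). Of the genes tested with MGH-CP1, 50.7% were called lower and 49.3% higher. The genes listed for MGH-CP1 also all have a deposited adjusted p below 0.05 and a log2 change of at least 1 in size. The call of Pabpn1 was thus largely set by that choice. Both comparisons use the same vehicle libraries.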

How the data were processed

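RNA sequencing of EHE17 cells was analysed from 2 deposited gene tables. Poly-T beads selected the messages and random primers copied them, with no strand mark, per the labels' protocols. The authors used HISAT2 2.0.5, featureCounts 1.5.0-p3, fastp and DESeq2 1.20.0, as listed in the submitters' processing notes; the build is not given in the sources used here. All 251 gene identifiers are in GENCODE M21 (GRCm38), 96.4% with the same coordinates.

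Per the file headers, the tables hold raw counts, FPKM, and the authors' log2 changes and p-values. The deposited normalised signal proved to be counts over a size factor of the library; these factors and total counts were recovered by division and matched all values within 1%. Gene lengths are the authors' too.

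Counts were fitted with edgeR 4.0.16 in R 4.3.3 (quasi-likelihood, two-sided, filterByExpr with a minimum count of 10, the authors' size factors, Benjamini-Hochberg over the table, threshold 0.05), using the 6 libraries of each table, and the test was tested on simulated data. The authors had picked the listed genes on these libraries, so a call is no independent evidence. Every replicate pair differed by more than sampling noise (chi-square at least 5.53 times its degrees of freedom). The 3 genes and the lists were chosen with earlier results of these data known. Genes named are the 3, every list gene in a table, the 3 most alike in profile to each, and the neighbours in rank. Alternatives were TMM factors, total counts, DESeq2 1.42.0, no filter, a threshold of 0.01, a replicate block, leaving out each replicate and, added after seeing the data, a longer promoter window. Figures used matplotlib 3.10.9.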

Additional observations from a re-analysis of the deposited data

How the results depend on the processing

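With TMM factors over the listed genes, which take most of these picked genes as unchanged, the log2 changes were −2.45 for Srsf3, −3.24 for Ddx6 and −3.24 for Nup98; 106 of all tested genes were called lower, and Nup214 and Dicer1 changed sign, to 0.26 and 0.36. Relative to the median of all tested genes, the 3 genes moved by under 0.01, to −1.99, −2.79 and −2.79. Other library factors shift all genes by nearly the same amount, so this was set in advance and says nothing particular about the 3 genes. U2af1 and Fip1l1 lost their calls under TMM, and 8 list genes were called lower and 6 higher. Leaving out each replicate in turn gave −3.97 to −3.71 for Srsf3, −4.86 to −4.36 for Ddx6 and −5.08 to −4.32 for Nup98. The log2 change of the ratio of Nup98 to Ddx6, 0.14 over all libraries, ran from −0.18 to 0.54, so its sign rests on single dinaciclib libraries. Under total counts, DESeq2, no filter and a threshold of 0.01, the counts of list genes called stayed at 12 lower and 6 higher with dinaciclib.

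Same-numbered dinaciclib and vehicle libraries correlated at 0.16, 0.13 and 0.02 in their deviations from the group mean over 126 genes, so the numbers were not taken as pairs, though each dinaciclib library correlated best with its own number. With the replicate block, 181 tested genes were called lower and 59 higher, the list genes stayed at 12 lower and 6 higher, and the log2 changes of Srsf3, Ddx6 and Nup98 were −3.83, −4.63 and −4.65. Among the 3 genes, depth limits Nup98 most, with 29 counts in the dinaciclib libraries; Clp1 had 9 there. The promoter windows held 3 motif matches each for Srsf3 and Nup98, and 4 and 5 with the bases up to the RefSeq start, a length chosen after seeing the data.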
